A study of Rattus norvegicus with 35 samples.

Results

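The 50 genes described here act in the mitotic part of the cell cycle: transcription factors of the late cycle, cyclins and Cdk1, mitotic kinases, the spindle checkpoint, the kinetochore, kinesins and proteins that shape chromosomes. They were chosen by name as known mitotic genes, with earlier results of these data known. All 50 were found among the 34766 gene names on the array and all 50 were among the 24468 genes tested, 32 of them with 1 probe and 18 with several. RNA came from the accessory lobe of the lung of 35 female Sprague Dawley rats, 1 one-colour array per rat. Rats were 12 weeks old at the start and received 4 weekly instillations into the trachea, of Pluronic vehicle or of a carbon nanotube in a dose labelled 0.25 mg per rat, which the labels do not mark as each instillation or the total. Lungs were sampled 3 days post exposure. Mitsui-7 is a long and thick multi-walled carbon nanotube, and NM-403 a shorter and thinner one.

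The 6 groups were wild-type (WT) rats given vehicle, Mitsui-7 or NM-403, and rats heterozygous for p53 (p53het, labelled GMO) given the same. Each group held 6 rats except the p53het NM-403 group, which held 5. The labels do not describe the altered allele, and the genotype of the rats was not checked here. The labelled tissue was checked with 6 markers of lung epithelium, all of which were above background on every array. A level is given throughout as a percentage of the 75th percentile of the signal on the same array, and describes 1 probe, so levels of different genes are not compared. A whole lobe holds many cell types, so more dividing cells and more RNA per dividing cell cannot be told apart.

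In a cell that divides, cyclin E starts DNA replication, cyclins A and B with the kinase Cdk1 carry the cell into mitosis, and the anaphase-promoting complex ends mitosis by marking cyclin B for destruction. Genes for this late part of the cycle are switched on together. A core of proteins called MuvB holds their promoters silent in resting cells with the p130 pocket protein, and turns them on with B-Myb (Mybl2) and Foxm1 in dividing cells. MuvB binds a short element known as the cell cycle genes homology region (CHR), often beside CCAAT boxes bound by NF-Y. p53 acts on the same promoters through its target Cdkn1a (p21), which inhibits the cyclin-dependent kinases. Cell division is rare in the resting adult lung and increases when the tissue replaces lost cells.

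RefSeq promoter windows of 300 bases, from 250 before to 50 after the start of the gene in build GRCr8, were matched for 41 of the 50 genes. They were searched on both strands for CCAAT, for a CHR spelled TTTGAA or in its variant forms TTCGAA or, with only A and T, TTTAAA, and for the E2F motif spelled TTCCCGC or, in another common form, TTGGCGC. The first of these was in 28 of 41 windows (68.3%), against 37.5% of all 33469 windows of that length. A CHR was in 35 of 41 (85.4%), against 29.4% of all windows. Both were in 25 of 41 (61%), against 11.8%. The E2F letters were in 5 of 41 (12.2%), against 6.26%. A match is a run of letters, not a bound site. Ccne1, a gene of the start of the cycle, held a CHR and no CCAAT in its window.

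The 150 bases before the start of 5 genes are shown, because these genes span the responses described below. Cdk1, Ccnb1, Plk1 and Nek2 rose in every nanotube group, and Nek2 also separated the nanotubes. Cdc25b rose in none, and its fall after Mitsui-7 in WT rats was lost under some alternatives. The stretches are printed in the direction of the gene, with CCAAT boxes (ATTGG on the other strand) and CHR letters in capitals. Cdk1 lies at chr20:19265143-19265292 on the plus strand, Ccnb1 at chr2:33655226-33655375 on the minus strand, Plk1 at chr1:186147508-186147657 on the plus strand, Nek2 at chr13:105936659-105936808 on the plus strand and Cdc25b at chr3:138860023-138860172 on the plus strand.
Cdk1: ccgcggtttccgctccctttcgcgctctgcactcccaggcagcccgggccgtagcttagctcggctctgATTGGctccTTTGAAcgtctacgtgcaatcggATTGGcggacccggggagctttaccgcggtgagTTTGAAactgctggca
Ccnb1: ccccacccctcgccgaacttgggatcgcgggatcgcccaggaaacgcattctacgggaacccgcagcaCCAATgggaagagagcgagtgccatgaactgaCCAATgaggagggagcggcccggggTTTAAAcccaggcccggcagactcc
Plk1: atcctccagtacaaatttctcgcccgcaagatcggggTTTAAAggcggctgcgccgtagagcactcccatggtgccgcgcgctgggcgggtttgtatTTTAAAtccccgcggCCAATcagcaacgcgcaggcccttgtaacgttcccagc
Nek2: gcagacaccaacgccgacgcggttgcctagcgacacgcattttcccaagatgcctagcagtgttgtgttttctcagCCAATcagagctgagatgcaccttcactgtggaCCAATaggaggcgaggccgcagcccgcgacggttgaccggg
Cdc25b: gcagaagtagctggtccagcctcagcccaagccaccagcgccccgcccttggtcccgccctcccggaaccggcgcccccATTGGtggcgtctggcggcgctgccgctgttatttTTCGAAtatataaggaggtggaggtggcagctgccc
Ccnb1 held CCAAT 82 and 50 bases before the start and a CHR 25 bases before it, and Cdk1 had its last CCAAT at 49 and its last CHR at 16. Plk1 had the reverse order, with a CHR at 53 and CCAAT at 38. Nek2 held CCAAT at 74 and 41 and no CHR, while Cdc25b held CCAAT at 71 and a CHR at 36. Among these 5 genes the letters alone did not separate those that rose from Cdc25b, which did not.

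Before the members' values, some facts on the arrays bear on them. On each array 66.1 to 86.4% of spots outside the controls were well above background. The highest share was that of WT Mitsui-7 rat 5 and the lowest that of WT NM-403 rat 6, and results that rest on these rats are also given without them. The arrays lay on 5 slides, and arrays of different groups on the same slide deviated together (mean r of residuals 0.239 over 99 pairs, against -0.0564 over 411 pairs on different slides). Of the 50 genes, 44 were well above background on all 35 arrays. The others were Melk, Kif2c and Ncapg (34 arrays each), Cdca2 (33), Pbk (27) and Cenpe (11). Cenpe was above background in none of the vehicle rats, so its fold against vehicle is given only as an approximate lower bound. It passed the filter on dim probes only through groups in which it was high. Its calls therefore support nothing, although it is 1 of the genes counted as risen after Mitsui-7 in both genotypes and after NM-403 in p53het rats. Pbk was above background in 2 rats of each vehicle group, so it too passed that filter only through the nanotube groups. Its calls, counted as rises in all 4 comparisons with vehicle, support nothing either. Both genes also stay in the mean of the 50 genes and, where their groups did not overlap, in those counts.

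After Mitsui-7, 45 of the 50 genes rose in WT rats and 1 fell (limma, adjusted p under 0.05 over all genes tested), where 8.42% of all genes rose and 5.56% fell (14% either way). Their median log2 change was 1.35 (from -0.39 to 2.04), against 0.03 over all genes. In 43 of them every Mitsui-7 rat lay above every vehicle rat, which held for 4.52% of all genes, and in 0 did they all lie below, as for 2.89% of all genes. After NM-403, 37 of 50 rose in WT rats and 0 fell, where 2.3% of all genes rose, and their median change was 0.96 (from -0.71 to 1.50). Every NM-403 rat lay above every vehicle rat in 23 of them, against 1.77% of all genes. In p53het rats 39 of 50 rose after Mitsui-7, where 5.29% of all genes rose and 6.29% fell, with a median change of 1.09, and the groups did not overlap in 31 (2.73% of all genes). After NM-403, 31 of 50 rose in p53het rats, where 1.27% of all genes rose, with a median of 0.91, and the groups did not overlap in 24 (1.16% of all genes). The comparisons of a genotype share their vehicle rats. 30 genes rose in all 4 comparisons, and 5 rose in none: Cdc25b, Cdc25c, Kif4a, Kif23 and Cenpa. With normexp background correction, which adds a fixed offset and draws dim signals together, the median changes were 0.75, 0.56, 0.57 and 0.36 in the order given. Of all genes called after Mitsui-7 in WT rats 60.2% were higher, and 44.3% and 43.2% with quantile and median scaling, while 44 members rose and 1 fell under either. After Mitsui-7 in p53het rats the share was 45.7%, and 46.6% and 55.3% under these scalings. Under the authors' own values 9 of the 50 genes were measured, and 8 of them rose in each of the 4 comparisons. Of the 9803 genes with such values 643, 305, 743 and 143 rose in the order given.

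**Figure D1:**
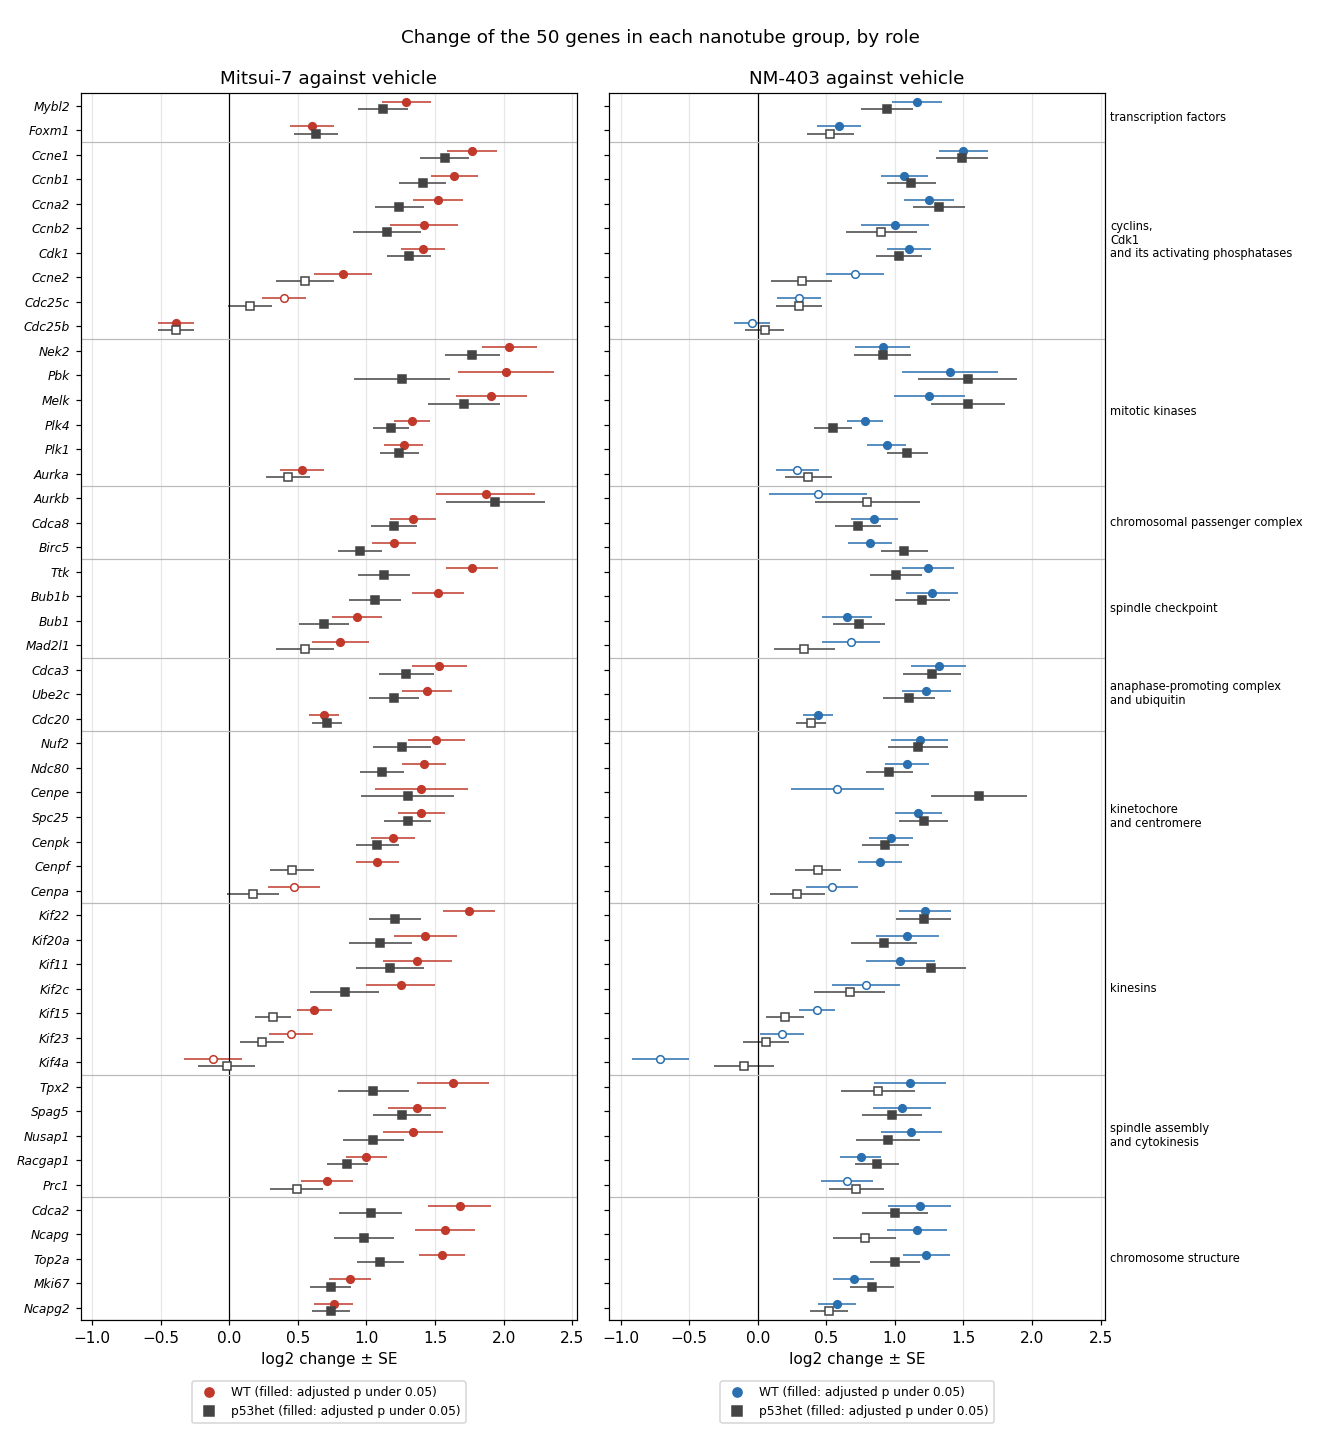
Log2 change ± standard error of each of the 50 genes (y axis, by role) after Mitsui-7 (left) and NM-403 (right) against vehicle, in WT rats (circles) and p53het rats (squares), with filled symbols where the adjusted p was under 0.05. The points of Cenpe rest on vehicle signals that were not above background, and those of Pbk largely do. Nearly the whole list lies to the right of 0; Cdc25b and Kif4a do not, and in the WT Mitsui-7 comparison the changes run from -0.39 to 2.04.

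Foxm1 and Mybl2 are the transcription factors that switch on the late genes of the cycle. In WT rats Foxm1 lay at 9.63, 11.9 and 16.4% (lowest, median and highest rat) after vehicle, 16.5, 18.0 and 21.7% after Mitsui-7 and 13.4, 17.9 and 28.7% after NM-403. In p53het rats it lay at 7.55, 12.8 and 14.6% after vehicle, 13.7, 18.4 and 20.8% after Mitsui-7, and at 11.9, 15.5, 17.7, 17.7 and 21.7% in the 5 NM-403 rats. Only the WT Mitsui-7 rats were clear of their vehicle group. Foxm1 rose 1.51-fold after Mitsui-7 in WT rats (log2 0.60 ± 0.16 (SE), adjusted p = 0.0125) and 1.55-fold in p53het rats (adjusted p = 0.0102). After NM-403 it rose in WT rats (0.59 ± 0.16, adjusted p = 0.0395) and missed the threshold in p53het rats (0.53 ± 0.17, adjusted p = 0.139). The WT call after NM-403 was lost when any of 9 of the 12 rats was left out (adjusted p up to 0.157): all but vehicle rat 4 and NM-403 rats 2 and 3.

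Mybl2 (B-Myb) changed more than Foxm1. It lay at 1.39, 2.56 and 2.95% after vehicle, 4.63, 5.4 and 6.37% after Mitsui-7 and 3.7, 5.1 and 6.09% after NM-403 in WT rats. The p53het rats lay at 1.75, 2.56 and 3.52% after vehicle, 4.07, 5.7 and 6.32% after Mitsui-7, and at 3.91, 4.62, 5.27, 5.29 and 5.3% after NM-403. No nanotube rat overlapped the vehicle rats of its genotype. The rise was 2.45-fold after Mitsui-7 (adjusted p = 3.29e-06) and 2.24-fold after NM-403 (adjusted p = 0.000104) in WT rats, and 2.17-fold and 1.92-fold in p53het rats (adjusted p = 4.66e-05 and 0.00366).

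Of the 8 cyclins, Cdk1 and its activating phosphatases, 6 rose and 1 fell after Mitsui-7 in WT rats, 5 rose after NM-403, and 5 and 4 rose in p53het rats. Ccne1 (cyclin E1), which drives entry into DNA replication, changed most of these. In WT rats it lay at 2.38, 3.41 and 4.48% after vehicle, 8.47, 11.7 and 14.4% after Mitsui-7 and 8.21, 9.13 and 11.4% after NM-403. Levels in p53het rats were 2.62, 3.66 and 6.35% after vehicle, 9.41, 10.6 and 15% after Mitsui-7, and at 7.35, 10.6, 10.8, 12.1 and 14.5% after NM-403. Every nanotube rat was above every vehicle rat of its genotype. Ccne1 rose 3.42-fold after Mitsui-7 (log2 1.77 ± 0.18, adjusted p = 1.69e-08) and 2.83-fold after NM-403 (1.50 ± 0.18, adjusted p = 4.81e-06) in WT rats, and 2.97-fold and 2.81-fold in p53het rats. Its close relative Ccne2 rose after Mitsui-7 in WT rats (0.83 ± 0.21, adjusted p = 0.00772). Its changes of 0.71, 0.55 and 0.32 in the other 3 comparisons missed the threshold.

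Cdk1 and Ccnb1 form the kinase that drives mitosis. Cdk1 lay at 38.5, 45 and 67.9% after vehicle, 109, 133 and 140% after Mitsui-7 and 86.6, 97.4 and 147% after NM-403 in WT rats. Among p53het rats it was measured at 36.9, 50.6 and 64.9% after vehicle, 93.8, 120 and 169% after Mitsui-7, and at 80.1, 88.5, 94.9, 106 and 144% after NM-403. There was no overlap between nanotube and vehicle rats. Cdk1 rose 2.66-fold and 2.14-fold in WT rats after Mitsui-7 and NM-403 (adjusted p = 1.44e-07 and 7.2e-05), and 2.48-fold and 2.04-fold in p53het rats (adjusted p = 8.14e-07 and 0.000561). Ccnb1 (cyclin B1) lay at 3.75, 4.1 and 5.55% after vehicle, 10.7, 14.1 and 15% after Mitsui-7 and 6.8, 8.68 and 13.5% after NM-403 in WT rats. For p53het rats the levels were 3.44, 4.54 and 5.11% after vehicle, 8.79, 11.4 and 13.9% after Mitsui-7, and at 6.9, 7.84, 8.97, 9.37 and 15.5% after NM-403. Again no nanotube rat lay within the vehicle range. The rises were 3.13-fold and 2.1-fold in WT rats and 2.65-fold and 2.17-fold in p53het rats, with adjusted p from 1.69e-08 to 0.000299. Ccna2 (cyclin A2) rose in all 4 comparisons, by log2 1.24 to 1.52, and Ccnb2 (cyclin B2) in all but p53het NM-403 (0.90 ± 0.26, adjusted p = 0.078).

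Cdc25b and Cdc25c encode phosphatases that remove the inhibitory phosphates from Cdk1, and neither rose. Cdc25b lay at 36.4, 44.3 and 48.1% after vehicle, 28.6, 32.3 and 39.4% after Mitsui-7 and 34, 42.7 and 50.6% after NM-403 in WT rats. Rats of the p53het genotype lay at 32.4, 42.4 and 54% after vehicle, 23.4, 32.6 and 44.9% after Mitsui-7, and at 40.5, 40.7, 42.4, 46.2 and 53.4% after NM-403. The ranges of vehicle and Mitsui-7 rats overlapped in both genotypes. Cdc25b fell by 0.39 on the log2 scale after Mitsui-7 in WT rats (SE 0.13, adjusted p = 0.047), and its change was -0.39 ± 0.13 in p53het rats (adjusted p = 0.051). After NM-403 it changed by -0.04 and 0.05. The call in WT rats was lost with normexp (adjusted p = 0.143), without the filter on dim probes (0.0667) and when any of 8 of the 12 rats was left out (up to 0.123): vehicle rats 1, 2, 4 and 5 and Mitsui-7 rats 3 to 6. Cdc25c changed by 0.40, 0.30, 0.15 and 0.30, with no call.

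**Figure D2:**
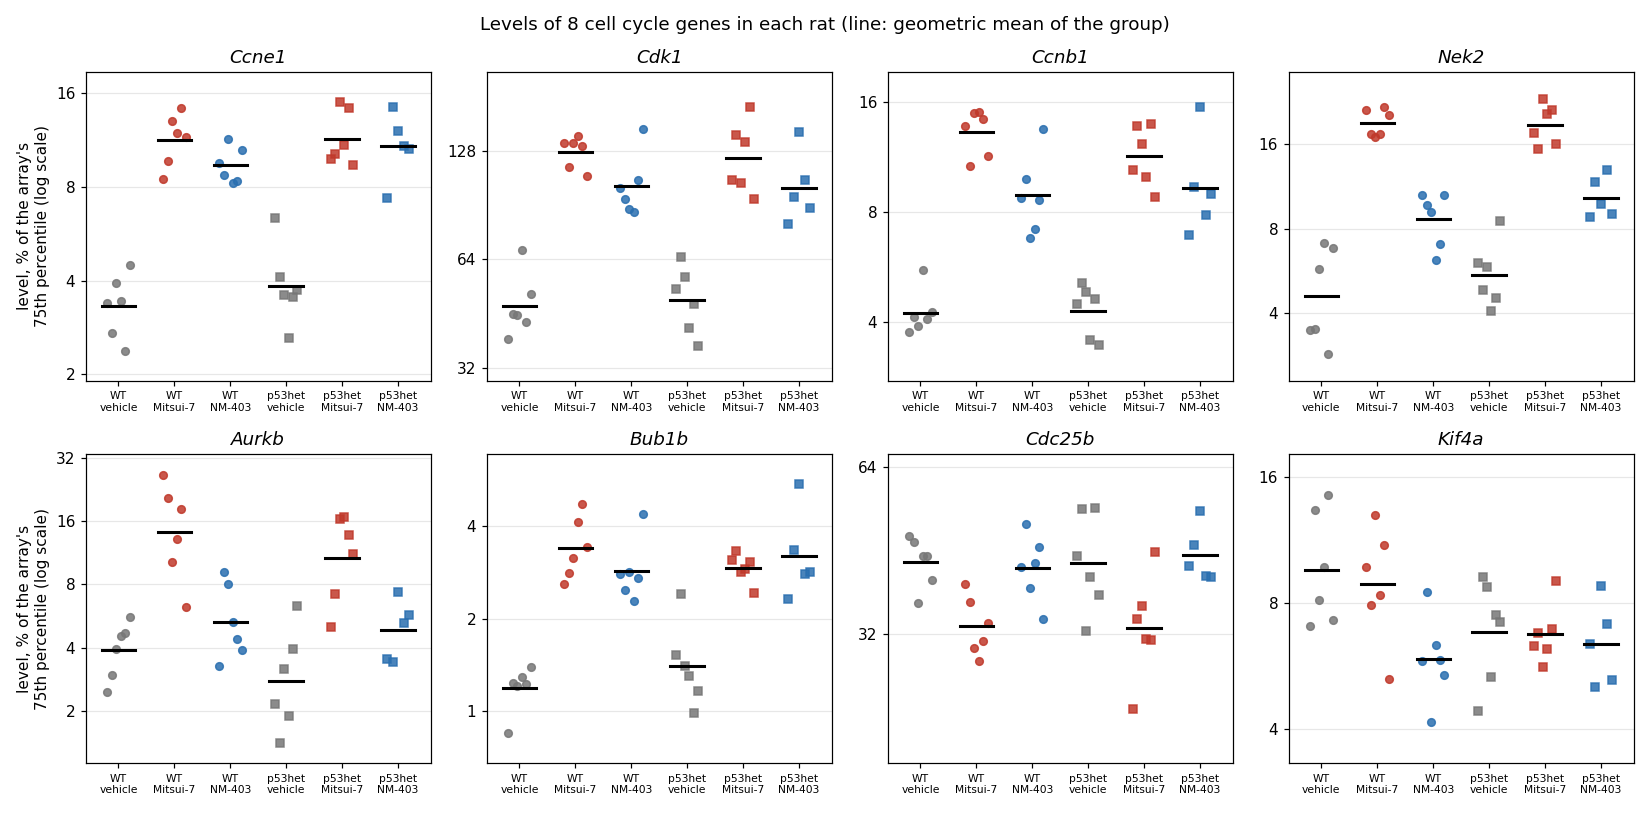
Level of 8 of the genes in each rat, as a percentage of the 75th percentile of the array (log scale), for the 6 groups, with circles for WT and squares for p53het rats and a line at the geometric mean. Ccne1, Cdk1, Ccnb1 and Bub1b are above vehicle after either nanotube, Nek2 and Aurkb are highest after Mitsui-7, and Cdc25b and Kif4a are not raised.

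All 6 genes grouped as mitotic kinases among the 50 rose after Mitsui-7 in WT rats, and 5 rose in each of the other 3 comparisons. Nek2, a kinase that splits the centrosomes at the start of mitosis, changed most of all 50 genes after Mitsui-7 in WT rats. It lay at 2.88, 4.63 and 7.11% after vehicle, 16.9, 18.8 and 21.7% after Mitsui-7 and 6.18, 9.44 and 10.5% after NM-403. In p53het rats it lay at 4.08, 5.34 and 8.52% after vehicle, 15.4, 19 and 23.1% after Mitsui-7, and at 8.79, 8.99, 9.79, 11.7 and 12.9% after NM-403. In either genotype the lowest Mitsui-7 rat was above the highest NM-403 rat. Nek2 rose 4.1-fold after Mitsui-7 in WT rats (log2 2.04 ± 0.20, adjusted p = 5.35e-09) and 3.42-fold in p53het rats (1.77 ± 0.20, adjusted p = 1.13e-07). After NM-403 it rose 1.88-fold in both genotypes (0.91 ± 0.20, adjusted p = 0.00563, and 0.91 ± 0.21, adjusted p = 0.0134). The p53het call after NM-403 was lost without NM-403 rat 2 or 4 (adjusted p up to 0.0512).

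Plk1, which acts from mitotic entry to cell separation, lay at 12.3, 15.6 and 20.8% after vehicle, 34.8, 36.3 and 43.4% after Mitsui-7 and 24.3, 28.3 and 42.8% after NM-403 in WT rats. The p53het rats lay at 12.1, 16 and 21.4% after vehicle, 33.1, 37.4 and 43.3% after Mitsui-7, and at 24.7, 30.7, 34.5, 40.2 and 41.9% after NM-403. None of these nanotube ranges touched the vehicle range. The rises were 2.42-fold and 1.92-fold in WT rats and 2.37-fold and 2.13-fold in p53het rats, with adjusted p from 8.45e-08 to 8.63e-05.

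Plk4, which starts the copying of centrioles, lay at 2.58, 2.99 and 4.01% after vehicle, 6.48, 8.29 and 8.78% after Mitsui-7 and 4.51, 5.59 and 5.99% after NM-403 in WT rats. Levels in p53het rats were 2.44, 3.36 and 3.84% after vehicle, 5.38, 8.18 and 9.06% after Mitsui-7, and at 3.99, 4.49, 4.9, 5.1 and 5.32% after NM-403. The 3 groups of a genotype did not overlap, in the order vehicle, NM-403, Mitsui-7. The rises were 2.52-fold and 1.71-fold in WT rats (adjusted p = 1.03e-08 and 0.000462) and 2.27-fold and 1.46-fold in p53het rats (adjusted p = 1.48e-07 and 0.0341). The last of these calls was lost when any of 8 of 11 rats was left out (adjusted p up to 0.114): vehicle rats 2 to 5 and NM-403 rats 2 to 5.

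Aurka, the kinase of the spindle poles, had the smallest change of the kinases. It lay at 10.6, 14.2 and 16.6% after vehicle, 15.5, 20.4 and 26.4% after Mitsui-7 and 13.6, 16.5 and 21.9% after NM-403 in WT rats. Among p53het rats it was measured at 12.1, 14.4 and 20.7% after vehicle, 17.4, 20.8 and 27% after Mitsui-7, and at 16.6, 18, 19.6, 20.7 and 27.7% after NM-403. All of these ranges overlapped those of vehicle rats. Aurka rose after Mitsui-7 in WT rats (1.45-fold, adjusted p = 0.0244), a call lost when any of 6 of 12 rats was left out (up to 0.0784): vehicle rats 1, 2 and 5 and Mitsui-7 rats 4, 5 and 6. Its other changes were 0.29, 0.43 and 0.37. Melk and Pbk, kinases of dividing cells whose signal was low after vehicle, rose in all 4 comparisons, Melk by log2 1.91, 1.25, 1.71 and 1.53 and Pbk by 2.02, 1.40, 1.26 and 1.53. Pbk was above background in 2 of 6 rats of each vehicle group, so its changes rest largely on vehicle signals that were not above background.

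The chromosomal passenger complex corrects faulty attachments of chromosomes to the spindle, and all 3 of its measured members rose after Mitsui-7 in both genotypes. Aurkb, its kinase, lay at 2.47, 4.25 and 5.61% after vehicle, 6.24, 15.6 and 26.6% after Mitsui-7 and 3.27, 4.85 and 9.13% after NM-403 in WT rats. For p53het rats the levels were 1.42, 2.67 and 6.33% after vehicle, 5.03, 12.4 and 16.7% after Mitsui-7, and at 3.41, 3.56, 5.26, 5.73 and 7.35% after NM-403. The spread within groups was wide, and only the WT Mitsui-7 rats were clear of their vehicle group. Aurkb rose 3.65-fold after Mitsui-7 in WT rats (log2 1.87 ± 0.36, adjusted p = 0.000398) and 3.84-fold in p53het rats (1.94 ± 0.36, adjusted p = 0.000354). After NM-403 its changes of 0.44 ± 0.36 and 0.80 ± 0.38 missed the threshold (adjusted p = 0.657 and 0.394).

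Birc5 (survivin), which places the complex on the centromere, lay at 3.4, 3.89 and 6.34% after vehicle, 8.09, 9.34 and 12.2% after Mitsui-7 and 5.12, 7.51 and 11.5% after NM-403 in WT rats. Rats of the p53het genotype lay at 3.71, 4.53 and 5.73% after vehicle, 7.9, 8.63 and 10.5% after Mitsui-7, and at 8.11, 8.78, 8.78, 11.6 and 11.6% after NM-403. Only the WT NM-403 range overlapped that of vehicle. Birc5 rose in all 4 comparisons, 2.29-fold and 1.76-fold in WT rats and 1.93-fold and 2.09-fold in p53het rats, with adjusted p from 3.2e-06 to 0.00264. Cdca8 (borealin) rose in all 4, by 1.34, 0.85, 1.20 and 0.73.

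The spindle checkpoint holds the cell before anaphase until each chromosome is attached, and all 4 of its genes rose after Mitsui-7 in WT rats and 3 in the other comparisons. Bub1b lay at 0.845, 1.23 and 1.39% after vehicle, 2.59, 3.29 and 4.73% after Mitsui-7 and 2.29, 2.75 and 4.39% after NM-403 in WT rats. In p53het rats it lay at 0.987, 1.35 and 2.4% after vehicle, 2.43, 2.98 and 3.32% after Mitsui-7, and at 2.32, 2.8, 2.85, 3.35 and 5.51% after NM-403. A single p53het vehicle rat reached the range of the NM-403 rats. Bub1b rose 2.87-fold and 2.4-fold in WT rats (adjusted p = 9.68e-07 and 0.000104) and 2.09-fold and 2.29-fold in p53het rats (adjusted p = 0.000284 and 0.000728).

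Ttk (Mps1), the kinase at the head of the checkpoint, changed most of the 4 after Mitsui-7 in WT rats. It lay at 1.81, 2.13 and 3.61% after vehicle, 6.76, 7.68 and 10.4% after Mitsui-7 and 4.06, 5.77 and 7.25% after NM-403 in WT rats. The p53het rats lay at 2.19, 3.07 and 4.16% after vehicle, 4.97, 6.46 and 8.64% after Mitsui-7, and at 4.14, 5.73, 6, 7.48 and 7.98% after NM-403. The p53het NM-403 rats alone overlapped their vehicle group, by 1 rat. Ttk rose 3.41-fold and 2.37-fold in WT rats and 2.19-fold and 2.02-fold in p53het rats, with adjusted p from 2.62e-08 to 0.0029. Mad2l1 (Mad2), which blocks Cdc20, changed least of the 4 after Mitsui-7 in WT rats. It lay at 4.61, 6.74 and 9.18% after vehicle, 9.46, 11.9 and 14.6% after Mitsui-7 and 7.64, 11 and 14% after NM-403 in WT rats, and in p53het rats at 4.64, 7.54 and 8.96% after vehicle, 7.04, 9.07 and 16.2% after Mitsui-7, and 5.89, 6.59, 9.04, 10.5 and 13.8% after NM-403. The WT Mitsui-7 rats alone were clear of vehicle. Mad2l1 rose after Mitsui-7 in WT rats (1.75-fold, adjusted p = 0.00944), and its other changes of 0.68, 0.55 and 0.34 missed the threshold. Bub1 rose in all 4, by 0.93, 0.65, 0.69 and 0.74, but the NM-403 calls were lost when any of 8 of 12 WT rats was left out (all but vehicle rats 3, 4 and 6 and NM-403 rat 4) or any of 9 of 11 p53het rats (all but vehicle rat 1 and NM-403 rat 1), with adjusted p up to 0.109 and 0.168.

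Cdc20, Ube2c and Cdca3 act in the ubiquitin-driven destruction of cell cycle proteins, and all 3 rose after Mitsui-7 in both genotypes and after NM-403 in WT rats. Cdc20, the activator that the checkpoint blocks, lay at 10.5, 12.2 and 15.3% after vehicle, 18.7, 20.2 and 22.8% after Mitsui-7 and 14.6, 16.5 and 20.3% after NM-403 in WT rats. Levels in p53het rats were 11.3, 12.9 and 15.8% after vehicle, 19.6, 21.3 and 24.7% after Mitsui-7, and at 14.6, 16.3, 17.5, 19.3 and 20.1% after NM-403. The Mitsui-7 rats were clear of vehicle in both genotypes and the NM-403 rats were not. Cdc20 rose 1.61-fold and 1.63-fold after Mitsui-7 (adjusted p = 3.05e-05 in WT and 3.15e-05 in p53het rats). After NM-403 it rose 1.36-fold in WT rats (adjusted p = 0.0185) and changed by 0.39 ± 0.11 in p53het rats (adjusted p = 0.0783). The WT call was lost without vehicle rat 2, 5 or 6 or NM-403 rat 5 (adjusted p up to 0.062). Cdca3, a trigger of entry into mitosis, lay at 9.55, 12.7 and 24.2% after vehicle, 33.9, 37.9 and 55.2% after Mitsui-7 and 26.2, 32.5 and 62.7% after NM-403 in WT rats. Among p53het rats it was measured at 10.3, 16.3 and 19.5% after vehicle, 32.6, 36.9 and 48.3% after Mitsui-7, and at 29.8, 31.7, 37.2, 37.5 and 51.7% after NM-403. No range overlapped that of vehicle, and Cdca3 rose 2.88-fold, 2.5-fold, 2.45-fold and 2.41-fold in the 4 comparisons. Ube2c, the ubiquitin-conjugating enzyme of the complex, rose 2.14-fold to 2.72-fold in all 4.

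Of the 7 kinetochore and centromere genes, 6 rose after Mitsui-7 in WT rats and 5 in each of the other comparisons. Nuf2, which with Ndc80 and Spc25 makes the complex that grips the microtubule, lay at 0.936, 1.53 and 1.94% after vehicle, 2.93, 3.97 and 5.67% after Mitsui-7 and 2.71, 3.01 and 4.95% after NM-403 in WT rats. For p53het rats the levels were 1.03, 2.02 and 2.32% after vehicle, 3.04, 4.17 and 4.97% after Mitsui-7, and at 2.73, 3.7, 4.17, 4.36 and 4.37% after NM-403. No range overlapped that of vehicle, and the rises were 2.84-fold, 2.27-fold, 2.4-fold and 2.25-fold. Ndc80 and Spc25 rose in all 4 comparisons as well, by log2 0.96 to 1.42.

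Cenpa, the histone that marks the centromere, did not pass the threshold in any comparison. It lay at 0.734, 1.37 and 1.91% after vehicle, 1.27, 1.71 and 2.48% after Mitsui-7 and 1.4, 1.91 and 2.45% after NM-403 in WT rats. Rats of the p53het genotype lay at 1.2, 1.48 and 1.88% after vehicle, 1.44, 1.6 and 2.23% after Mitsui-7, and at 1.36, 1.57, 1.61, 2.19 and 2.73% after NM-403. All ranges overlapped. Its changes were 0.47 ± 0.19, 0.54 ± 0.19, 0.17 ± 0.19 and 0.29 ± 0.20, but a second probe, above background on 23 of 35 arrays, differed by 1.77, 0.92, 1.64 and 1.59, so the probes of Cenpa disagreed. Cenpk rose in all 4, by 0.93 to 1.19. Its probes disagreed too: of 3 others, a probe above background on 35 arrays changed by 0.32, -0.07, 0.15 and -0.19, a second on 35 arrays by 1.18, 0.94, 0.90 and 0.96, and the third was above background on 0 arrays. Cenpf, a protein of the outer kinetochore, rose in WT rats (1.08 and 0.89), with changes of 0.46 and 0.44 in p53het rats that missed the threshold. Cenpe is the kinesin that brings chromosomes to the spindle equator. Its approximate lower bound was 1.61-fold after Mitsui-7 in WT rats, 1.31-fold in p53het rats, and 1.63-fold after NM-403 in p53het rats. There 4 of 6, 3 of 6 and 4 of 5 rats were above background, and the bound also counts the others of the group. It is therefore not strict, and a rise of Cenpe is not shown. With normexp no Cenpe call was left, and these changes were 0.34, 0.14 and -0.02 on the log2 scale.

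The 7 kinesins, motors that move along microtubules, did not all move alike: 5 rose after Mitsui-7 and 3 after NM-403 in WT rats, and 4 and 3 in p53het rats. Kif11 (Eg5), which pushes the spindle poles apart, lay at 1.49, 2.57 and 3.28% after vehicle, 4.41, 5.92 and 8.27% after Mitsui-7 and 3.86, 4.81 and 6.16% after NM-403 in WT rats. In p53het rats it lay at 1.26, 2.64 and 3.71% after vehicle, 3.39, 6.04 and 8.45% after Mitsui-7, and at 3.92, 5.74, 6.63, 7.04 and 7.49% after NM-403. The p53het Mitsui-7 range alone overlapped that of vehicle. Kif11 rose 2.59-fold, 2.06-fold, 2.25-fold and 2.4-fold (adjusted p from 0.000194 to 0.0129). Kif22, which binds chromosome arms, changed most of the kinesins after Mitsui-7 in WT rats. It lay at 2.01, 2.88 and 4% after vehicle, 6.85, 10.1 and 12.8% after Mitsui-7 and 5.39, 6.68 and 9.71% after NM-403 in WT rats, and in p53het rats at 2.07, 3.66 and 3.93% after vehicle, 5.8, 8.09 and 10.4% after Mitsui-7, and 5.19, 7.98, 8.04, 8.45 and 10% after NM-403. It rose 3.37-fold, 2.34-fold, 2.31-fold and 2.31-fold, with no overlap. Kif20a, which acts in the cleavage furrow, rose in all 4 by 0.92 to 1.43.

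Kif4a, a chromosome-bound kinesin, was not called in any comparison, although its WT NM-403 change passed the threshold under some alternatives, slide as a block and array weights among them. It lay at 7.06, 8.94 and 14.5% after vehicle, 5.27, 9.06 and 13% after Mitsui-7 and 4.15, 5.83 and 8.52% after NM-403 in WT rats. The p53het rats lay at 4.42, 7.33 and 9.25% after vehicle, 5.63, 6.55 and 9.01% after Mitsui-7, and at 5.04, 5.25, 6.38, 7.14 and 8.78% after NM-403. The ranges overlapped throughout, and the lowest WT rat was one given NM-403. The changes were -0.12 ± 0.21, -0.71 ± 0.21 (adjusted p = 0.0604), -0.02 ± 0.21 and -0.10 ± 0.22, and the sign of the p53het Mitsui-7 value turned under quantile and median scaling (0.01 in each). Kif23, a kinesin of the midbody, changed by 0.45, 0.18, 0.24 and 0.06, with no call. Kif2c, which takes microtubules apart, rose after Mitsui-7 (1.25 and 0.84) and changed by 0.79 and 0.67 after NM-403. Kif15 rose after Mitsui-7 in WT rats (0.62 ± 0.13) and changed by 0.43, 0.32 and 0.20 in the other comparisons.

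Spindle assembly and cytokinesis genes rose in 5 of 5 cases after Mitsui-7 and 4 of 5 after NM-403 in WT rats, and in 4 and 3 of 5 in p53het rats. Tpx2, which activates Aurora A and seeds microtubules, lay at 1.21, 1.72 and 3.57% after vehicle, 4.3, 5.46 and 7.49% after Mitsui-7 and 2.18, 3.96 and 6.38% after NM-403 in WT rats. Levels in p53het rats were 1.06, 2.32 and 3.05% after vehicle, 3.16, 4.42 and 5.95% after Mitsui-7, and at 2.51, 2.99, 3.97, 4.35 and 6.02% after NM-403. Only the Mitsui-7 rats were clear of vehicle. Tpx2 rose 3.09-fold, 2.17-fold and 2.07-fold in the first 3 comparisons and changed by 0.88 ± 0.27 in the p53het NM-403 comparison (adjusted p = 0.11). Prc1, which bundles the midzone of the spindle, lay at 21.6, 26.7 and 34.5% after vehicle, 36, 44.7 and 54.2% after Mitsui-7 and 30.2, 43.6 and 57.9% after NM-403 in WT rats. Among p53het rats it was measured at 16.7, 30.9 and 36.3% after vehicle, 30.5, 34.8 and 58.7% after Mitsui-7, and at 30.4, 41.2, 41.3, 61.2 and 62.6% after NM-403. The WT Mitsui-7 rats alone were clear of vehicle. Prc1 rose after Mitsui-7 in WT rats (1.64-fold, adjusted p = 0.0109), and its other changes of 0.65, 0.49 and 0.72 missed the threshold. Spag5, Nusap1 and Racgap1 rose in all 4 comparisons, by 0.75 to 1.37. The probes of Spag5 disagreed, since a second one, above background on 35 arrays, changed by -0.05, -0.16, 0.11 and -0.01.

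All 5 genes of chromosome structure rose in the first 3 comparisons and 3 of 5 in the p53het NM-403 comparison. Top2a, which untangles DNA before mitosis, lay at 5.57, 6.5 and 10.7% after vehicle, 17.2, 20.7 and 23.8% after Mitsui-7 and 12.1, 16.3 and 22.2% after NM-403 in WT rats. For p53het rats the levels were 5.6, 7.8 and 10.1% after vehicle, 14.2, 16.5 and 24.1% after Mitsui-7, and at 12.8, 14.6, 14.7, 15 and 23.8% after NM-403. No range overlapped that of vehicle, and Top2a rose 2.93-fold, 2.35-fold, 2.15-fold and 2-fold (adjusted p from 5.86e-08 to 0.0012). Mki67 (Ki-67), which coats mitotic chromosomes and marks cycling cells, lay at 20.1, 25.3 and 30.1% after vehicle, 37.5, 48.1 and 52% after Mitsui-7 and 32, 39.1 and 51.8% after NM-403 in WT rats. Rats of the p53het genotype lay at 19.1, 26 and 37.7% after vehicle, 35, 46.2 and 53.5% after Mitsui-7, and at 33.1, 49.9, 50.3, 52.1 and 55.9% after NM-403. The WT groups were clear of vehicle, and in p53het rats 1 vehicle rat overlapped both nanotube groups. Mki67 rose 1.84-fold, 1.62-fold, 1.67-fold and 1.77-fold (adjusted p from 0.000135 to 0.0067), and its 3 other probes moved the same way in all 4 comparisons, by 0.53 to 1.35.

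Cdca2, which recruits a phosphatase to chromosomes as mitosis ends, lay at 0.602, 0.813 and 1.65% after vehicle, 2.16, 2.82 and 4.52% after Mitsui-7 and 1.62, 1.85 and 3.23% after NM-403 in WT rats. In p53het rats it lay at 0.907, 1.2 and 1.47% after vehicle, 1.91, 2.26 and 3.18% after Mitsui-7, and at 1.75, 1.82, 2.42, 2.42 and 3.44% after NM-403. Only the WT NM-403 rats overlapped their vehicle group, and Cdca2 rose 3.21-fold, 2.26-fold, 2.04-fold and 2-fold. Ncapg2, a condensin subunit, lay at 11.2, 13.6 and 17.9% after vehicle, 18.7, 23.4 and 32.3% after Mitsui-7 and 16.2, 23 and 24.5% after NM-403 in WT rats. The p53het rats lay at 12.6, 13.9 and 15.8% after vehicle, 21.8, 22.4 and 28.5% after Mitsui-7, and at 14.7, 19.9, 21, 22.9 and 23% after NM-403. The Mitsui-7 rats of both genotypes were clear of vehicle and the NM-403 rats were not. Ncapg2 rose 1.69-fold, 1.5-fold and 1.67-fold in the first 3 comparisons and changed by 0.52 ± 0.14 after NM-403 in p53het rats (adjusted p = 0.0612). Ncapg, a subunit of the other condensin, likewise rose in the first 3 (1.57, 1.16 and 0.98) and not in the last (0.78 ± 0.23, adjusted p = 0.0829).

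The nanotubes were compared with each other between the rats given each, within a genotype. In WT rats 3 of 50 genes were higher after Mitsui-7 than after NM-403 and 0 lower, where 2.78% of all genes were higher (3.33% either way), and the median difference was 0.29 (0.02 over all genes). These were Nek2 (log2 1.13 ± 0.20, adjusted p = 0.000396), Aurkb (1.42 ± 0.36, adjusted p = 0.0184) and Plk4 (0.56 ± 0.13, adjusted p = 0.0112). Every Mitsui-7 rat lay above every NM-403 rat for 2 of the 50, Nek2 and Plk4, against 1.92% of all genes. In p53het rats 2 of 50 were higher and 0 lower, where 1.09% of all genes were higher, again Nek2 (0.86 ± 0.21, adjusted p = 0.0222) and Plk4 (0.64 ± 0.14, adjusted p = 0.00942), and again without overlap (1.52% of all genes). Aurkb differed there by 1.14 ± 0.38 (adjusted p = 0.163). The median difference was 0.10 in p53het rats, against 0.03 over all genes. Cdc25b had the lowest difference in both, at -0.35 ± 0.13 and -0.44 ± 0.14 (adjusted p = 0.179 and 0.137), and Ccnb1 came close to the threshold in WT rats (0.58 ± 0.17, adjusted p = 0.0505).

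For most of the list a difference between the nanotubes was bounded only within ±1, about as wide as the median rise after NM-403 in WT rats (0.96). In WT rats the 95% confidence interval of the difference lay within ±1 on the log2 scale for 43 of 50 genes, held 0 for 35, lay above 0 for 14 and below 0 for 1. In p53het rats the interval lay within ±1 for 46, held 0 for 44, lay above 0 for 5 and below 0 for 1. These intervals are not adjusted for the number of genes, and the share over all genes is not given. The counts off 0 are therefore not calls and are not read as a result about the list. In WT rats the count of 3 became 5 without NM-403 rat 6, the rat in which most of the list was highest, and 2 without Mitsui-7 rat 1 or 5 or NM-403 rat 1, where Aurkb was lost (adjusted p up to 0.057). In p53het rats Nek2 was lost, and 1 gene stayed called, without Mitsui-7 rat 4 or 5 or NM-403 rat 1, 3 or 5 (adjusted p up to 0.0734). Under quantile and median scaling Plk4 missed the threshold in both genotypes (differences 0.48 to 0.60) and Nek2 in p53het rats (0.83 and 0.82). Plk4 also missed it in WT rats with normexp (0.31, adjusted p = 0.141) and in p53het rats when only the groups compared were fitted (adjusted p = 0.104). Aurkb missed it in WT rats when only the groups compared were fitted (adjusted p = 0.0706), and with normexp was called in p53het rats (0.86, adjusted p = 0.0407). With the mean of probes Nek2 missed it in p53het rats (0.60, adjusted p = 0.379). A further Nek2 probe, above background on only 4 arrays, differed by 0.90 and 0.34. Of all genes called between the nanotubes in WT rats, 83.4% were higher after Mitsui-7, and 69.9% and 66.4% under quantile and median scaling.

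**Figure D3:**
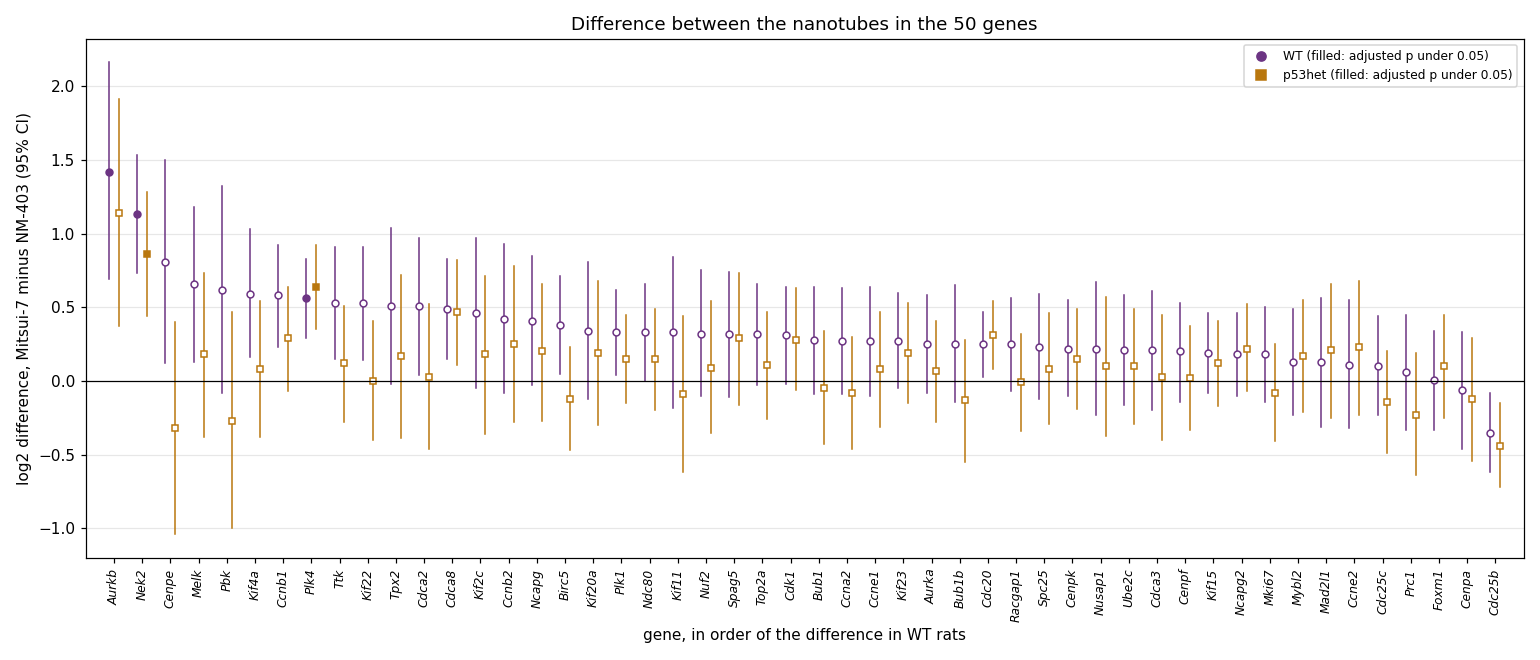
Difference between Mitsui-7 and NM-403 rats (log2, with 95% confidence intervals) for the 50 genes, in WT (circles) and p53het rats (squares), ordered by the WT difference, with filled symbols where the adjusted p was under 0.05. Nek2 and Plk4 are filled in both genotypes and Aurkb in WT rats, and most intervals hold 0.

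Whether p53 heterozygosity changed these genes was tested in the vehicle rats and as an interaction with each nanotube. Between the vehicle groups 0 of 50 genes passed (0% of all genes), with a median difference of 0.11, p53het minus WT, and 1 gene had an unadjusted p under 0.05, as did 483 of all genes. The vehicle groups were apart in 0 of the 50, as in 0.0736% of all genes with p53het rats higher and 0.0204% with them lower. It was Kif4a (-0.49 ± 0.21, adjusted p = 1), and Pbk lay at the other end (0.36 ± 0.35). For Mitsui-7 the interaction, p53het change minus WT change, passed in 0 of 50 genes (0% of all genes), with a median of -0.24 against -0.05 over all genes. The value was below 0 in 46 of the 50, from -0.76 ± 0.49 for Pbk to 0.10 ± 0.30 for Kif4a. Above 0 were 4 genes, and 9 and 13 under quantile and median scaling (medians -0.15 and -0.13). The 50 values come from the same rats and tended to move together, so these counts are not of independent observations. The share of all genes below 0 is not given, and a weaker response in p53het rats is not shown. Pbk was above background in only 2 of 6 rats of each vehicle group. Cenpf (-0.62 ± 0.23) and Ttk (-0.64 ± 0.26) were the 2 members with an unadjusted p under 0.05 (0.0113 and 0.0205), as had 729 of all genes. For NM-403 the interaction passed in 0 of 50 (0% of all genes), with a median of -0.06, the same as over all genes (0.02 and 0.01 for the 50 under quantile and median scaling). Leaving out Cenpe, the values ran from -0.45 ± 0.24 for Cenpf to 0.61 ± 0.31 for Kif4a. Cenpe was the only member with an unadjusted p under 0.05, as had 412 of all genes, and no value is given for it since it was above background in none of the vehicle rats. The interval of the interaction lay within ±1 for 39 of 50 genes with Mitsui-7 and 42 with NM-403. A member called in 1 genotype and not in the other is therefore not shown to differ between them.

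The mean of the 50 genes per rat, on the log2 scale relative to the 75th percentile, separated vehicle from nanotube rats with no overlap. It ran from -4.63 to -4.01 in WT vehicle rats, from -3.37 to -2.97 after Mitsui-7 and from -3.74 to -3.10 after NM-403. In p53het rats it ran from -4.51 to -4.15 after vehicle, from -3.51 to -3.02 after Mitsui-7 and from -3.70 to -3.09 after NM-403. Within a group 1 rat tended to lead the list: WT vehicle rat 4 was the highest of its group for 30 of the 50 genes, WT NM-403 rat 6 for 33, p53het Mitsui-7 rat 5 for 29 and p53het NM-403 rat 3 for 29. In the WT Mitsui-7 group rats 4 and 5 shared the lead, with 20 genes each. Without WT Mitsui-7 rat 5, 44 genes were called in the WT Mitsui-7 comparison. Without WT NM-403 rat 6, 33 were called in the WT NM-403 comparison, and without p53het NM-403 rat 3, 23 in the p53het one. Some calls rested on single rats. In WT rats the NM-403 call of Ccnb2 was lost without vehicle rat 3 or NM-403 rat 6, and that of Pbk without vehicle rat 2 or NM-403 rat 6 (adjusted p up to 0.0804 and 0.0578). In p53het rats the Mitsui-7 call of Kif2c was lost without vehicle rat 2 or Mitsui-7 rat 2 or 5 (up to 0.0725). In the p53het NM-403 comparison Spag5 was lost without NM-403 rat 3 (0.0665), Cdca8 without vehicle rat 6 or NM-403 rat 2 or 3 (up to 0.0665), and Pbk and Cdca2 without vehicle rat 4 or NM-403 rat 2, 3 or 5 (up to 0.0668 and 0.106). There Nusap1 was lost without vehicle rat 4 or 6 or NM-403 rat 3 or 4 (up to 0.128), and Kif20a without vehicle rat 1, 4, 5 or 6 or NM-403 rat 2, 3 or 4 (up to 0.184).

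**Figure D4:**
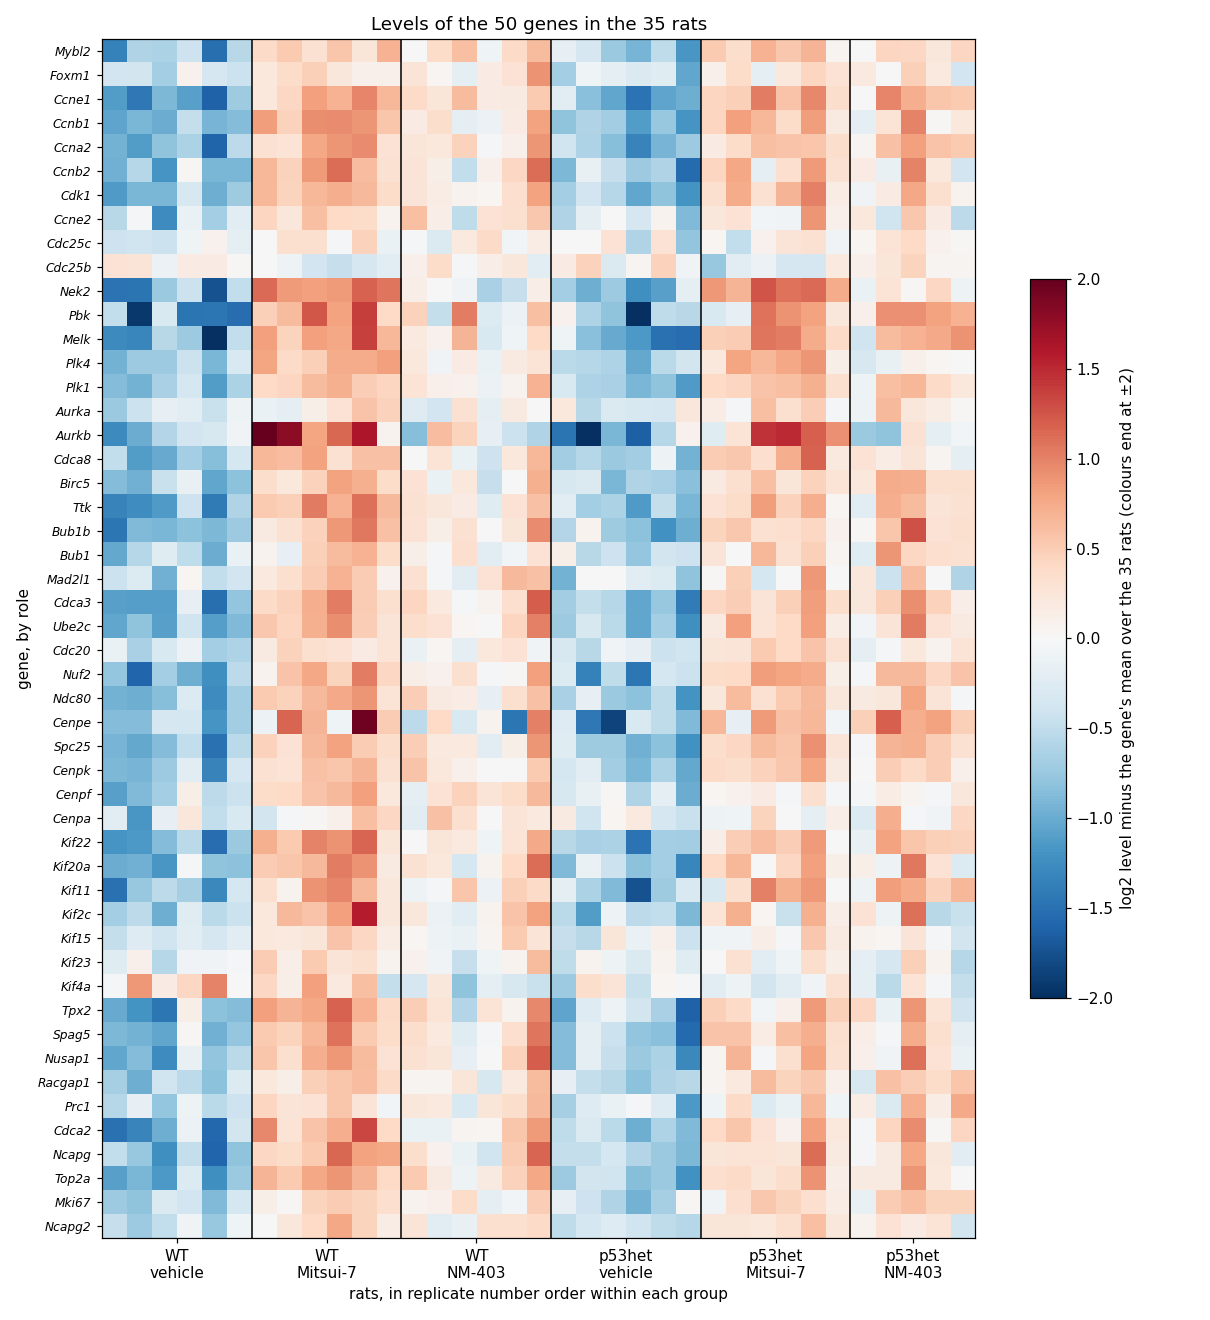
Log2 level of each of the 50 genes (rows of the map, by role) in each of the 35 rats (columns, by group), minus the mean of the gene over all rats, with colours ending at ±2. The vehicle columns are blue and the nanotube columns red for nearly all genes, with single rats paler or stronger across the whole list, while Cdc25b and Kif4a do not share the pattern.

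Within slides the rises were of the same order. On the 4 slides that held WT Mitsui-7 and WT vehicle rats, the median change of the 50 genes was 1.06 to 1.48, and 47 to 49 genes were above 0. For NM-403 in WT rats it was 0.50 to 1.21 on 5 slides, for Mitsui-7 in p53het rats 0.77 to 1.30 on 5, and for NM-403 in p53het rats 0.62 to 1.23 on 4. The median difference between the nanotubes changed sign between slides, from -0.09 to 0.52 in WT and from -0.25 to 0.21 in p53het rats, and that between the vehicle groups ran from -0.52 to 0.40. These within-slide values rest on 1 or 2 rats per group. With slide as a fixed block 47 members rose and 1 fell after Mitsui-7 in WT rats, 41 and 1 after NM-403, 42 and 1 after Mitsui-7 in p53het rats, and 38 and 0 after NM-403. The gene that fell was Kif4a in the WT NM-403 comparison and Cdc25b after Mitsui-7 in each genotype. Calls over all genes grew too. With that block 2852 rose and 2579 fell after Mitsui-7 in WT rats, against 2059 and 1360 without it. In the WT NM-403 comparison 1072 rose and 820 fell, against 563 and 220. After Mitsui-7 in p53het rats 2244 rose and 3277 fell, against 1294 and 1538. The p53het NM-403 comparison held 545 and 415, against 311 and 62. For the 18 genes with several probes, 27 of the 28 probes not used had the sign of the chosen one in the WT Mitsui-7 comparison, 26 in WT NM-403, 28 in p53het Mitsui-7 and 25 in p53het NM-403.

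Markers of several cell types moved with the nanotube groups, and their part in the rise of the cycle genes was not tested. Over all genes 8.42% rose and 5.56% fell after Mitsui-7 in WT rats, and 5.29% and 6.29% in p53het rats. After NM-403 the shares were 2.3% and 0.899% in WT rats, and 1.27% and 0.253% in p53het rats. A count of 0 among so few markers after NM-403 is near those shares. Of 8 macrophage and monocyte markers 5 rose after Mitsui-7 in WT rats (Itgam most, by 2.35 ± 0.22) and 3 in p53het rats, against 1 and 0 after NM-403. Their summed level ran from 343 to 464% in WT vehicle rats, 556 to 949% after Mitsui-7 and 456 to 532% after NM-403, and from 360 to 644%, 580 to 1010% and 442 to 855% in p53het rats. Such a sum is carried by its brightest probes and does not stand for each marker. In WT Mitsui-7 rats 1 of the 8 had a median of 690%, against a median sum of 873%. All 4 plasma cell markers rose after Mitsui-7 in both genotypes and 3 of 4 after NM-403 in both, and Jchain rose by 1.48 ± 0.30 in WT Mitsui-7 rats. Their sum ran from 146 to 327% in WT vehicle rats, 288 to 750% after Mitsui-7 and 330 to 630% after NM-403, and from 120 to 272%, 374 to 877% and 176 to 559% in p53het rats. Jchain made up nearly all of it, with a median of 618% against a median sum of 651% in WT Mitsui-7 rats. Of 5 endothelial markers 4 fell after Mitsui-7 in each genotype and 0 after NM-403, and their sum ran from 3310 to 4070% in WT vehicle rats, 1800 to 2680% after Mitsui-7 and 2520 to 3450% after NM-403, and from 3350 to 4270%, 1870 to 3020% and 2590 to 3260% in p53het rats.

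Other marker lists moved too, against the same shares over all genes. Of 4 fibroblast markers 2 rose and 1 fell after Mitsui-7 in WT rats, 1 rose and 1 fell in p53het rats, and 0 were called after NM-403. Their sum ran from 2140 to 2540% in WT vehicle rats, 2650 to 3480% after Mitsui-7 and 1800 to 2430% after NM-403, and from 1830 to 2620%, 2400 to 3300% and 1710 to 2300% in p53het rats. It is carried by the 2 brightest markers. The medians of the other 2 were lower after Mitsui-7 in WT rats, Pdgfra from 147 to 124% and Dcn from 269 to 181%. Of 4 erythroid markers 3 fell after Mitsui-7 in WT rats and 0 were called in the other 3 comparisons, and their sum ran from 295 to 464%, 162 to 311% and 206 to 369% in WT rats and from 238 to 350%, 153 to 339% and 239 to 319% in p53het rats. Cd4 rose after Mitsui-7 in both genotypes and Cd8a fell in p53het rats, of 6 T cell markers whose sum lay between 166 and 360% in all groups. Aqp5 fell after Mitsui-7 in both genotypes, of the 6 lung epithelial markers. Of 4 markers of liver and thymus only Ptcra was above background on every array, and it was not called.

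The rest of the cycle was read from a fixed list of 117 further genes, of which 112 were on the array and 107 were tested. After Mitsui-7, 53 of 107 rose and 2 fell in WT rats, and 47 rose and 2 fell in p53het rats. After NM-403, 39 and 31 rose and 0 fell. Over all genes 8.42% rose and 5.56% fell after Mitsui-7 in WT rats, and 5.29% and 6.29% in p53het rats. With NM-403 2.3% rose and 0.899% fell in WT rats, and 1.27% and 0.253% in p53het rats. The rises lay mainly among the other mitotic genes, where 47 and 42 of 61 rose after Mitsui-7 and 36 and 29 after NM-403. Of the 12 subunits of the anaphase-promoting complex itself 0 were called in any comparison. That is near the shares of all genes called either way, 14% and 3.2% after Mitsui-7 and NM-403 in WT rats and 11.6% and 1.52% in p53het rats. Its partners Cdc20 and Ube2c are given above. Of the 5 MuvB core genes 2 rose after Mitsui-7 in WT rats and 0 in the other nanotube comparisons.

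Stil, a centriole gene, changed most of this list after Mitsui-7 in WT rats, 5.23-fold (2.39 ± 0.27, adjusted p = 8.78e-08). It rose 3.2-fold after NM-403 in WT rats and 3.73-fold after Mitsui-7 in p53het rats, and changed by 0.99 ± 0.28 in the last comparison (adjusted p = 0.0644). Stil was above background in only 2 of 6 WT and 3 of 6 p53het vehicle rats. The size of its changes, and so its rank, rests in large part on vehicle signals that were not above background. E2f7 and E2f8, repressors of the E2F family that are themselves made in S phase, rose after Mitsui-7 in WT rats (4.25-fold and 3.75-fold) and in p53het rats (4.02-fold and 3.16-fold). After NM-403 E2f7 rose in both genotypes (1.54 and 1.21) and E2f8 in p53het rats (1.35 ± 0.30), with 0.95 ± 0.28 in WT rats (adjusted p = 0.0586). Shcbp1, a midbody protein, rose by 1.85, 1.72, 1.32 and 1.17. The others among the 4 with the largest rise in a comparison were Mis18a (1.60) in WT NM-403, Cks2 (1.39) in p53het Mitsui-7, and Sgo1 (1.35), Ska1 (1.30) and Ect2 (1.28) in p53het NM-403. Zwint, of the kinetochore, fell by 0.32 and by 0.34 after Mitsui-7 in WT and p53het rats.

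Of 14 G1 cyclins, kinases and E2F factors 2 rose and 1 fell after Mitsui-7 in WT rats, 3 rose in p53het rats, and 2 rose after NM-403 in either genotype. Over all genes 8.42% rose and 5.56% fell after Mitsui-7 in WT rats and 5.29% and 6.29% in p53het rats, and 2.3% and 1.27% rose after NM-403. Ccnd1 (cyclin D1), which carries growth signals into the cycle, fell by 0.36 after Mitsui-7 in WT rats (SE 0.10, adjusted p = 0.012); its other changes were -0.27, -0.21 and -0.21. E2f1 rose in p53het rats after Mitsui-7 (0.27 ± 0.09, adjusted p = 0.0423), with 0.23, 0.21 and 0.27 elsewhere. Of 15 brakes of the cycle 2 rose after Mitsui-7 in WT rats, and 2 rose and 1 fell in p53het rats, the last being Cdkn1c (-0.47 ± 0.10), against the same shares over all genes. Cdkn1b (p27) was not called, at -0.21, -0.23, -0.23 and -0.15.

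Cdkn1a (p21), the p53 target that inhibits cyclin-dependent kinases, separated the nanotubes. It lay at 104, 123 and 139% after vehicle, 176, 192 and 213% after Mitsui-7 and 112, 134 and 148% after NM-403 in WT rats. In p53het rats the lowest, median and highest rats lay at 89.5, 126 and 144% after vehicle, 170, 186 and 222% after Mitsui-7 and 93.1, 120 and 154% after NM-403. All Mitsui-7 rats lay above all others of their genotype. Cdkn1a rose 1.6-fold after Mitsui-7 in WT rats (adjusted p = 8.78e-05) and 1.58-fold in p53het rats (adjusted p = 0.000192), and changed by 0.11 and -0.01 after NM-403. It was higher after Mitsui-7 than after NM-403 in both genotypes (0.57 ± 0.12 and 0.67 ± 0.12, adjusted p = 0.00269 and 0.00118). In WT rats 4 genes of this list were higher after Mitsui-7 than after NM-403, the others being Pimreg (1.09), Iqgap3 (0.66) and Anln (0.40). Lower were 2, E2f2 (-0.36) and Zwint (-0.25). Over all genes 2.78% were higher and 0.552% lower. In p53het rats Cdkn1a was the only gene of the list called between the nanotubes, where 1.09% of all genes were higher and 0.278% lower. These counts are not read as a result about the list. Between the vehicle groups and in both interactions 0 of the 107 were called, as 0 of all genes were.

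**Figure D5:**
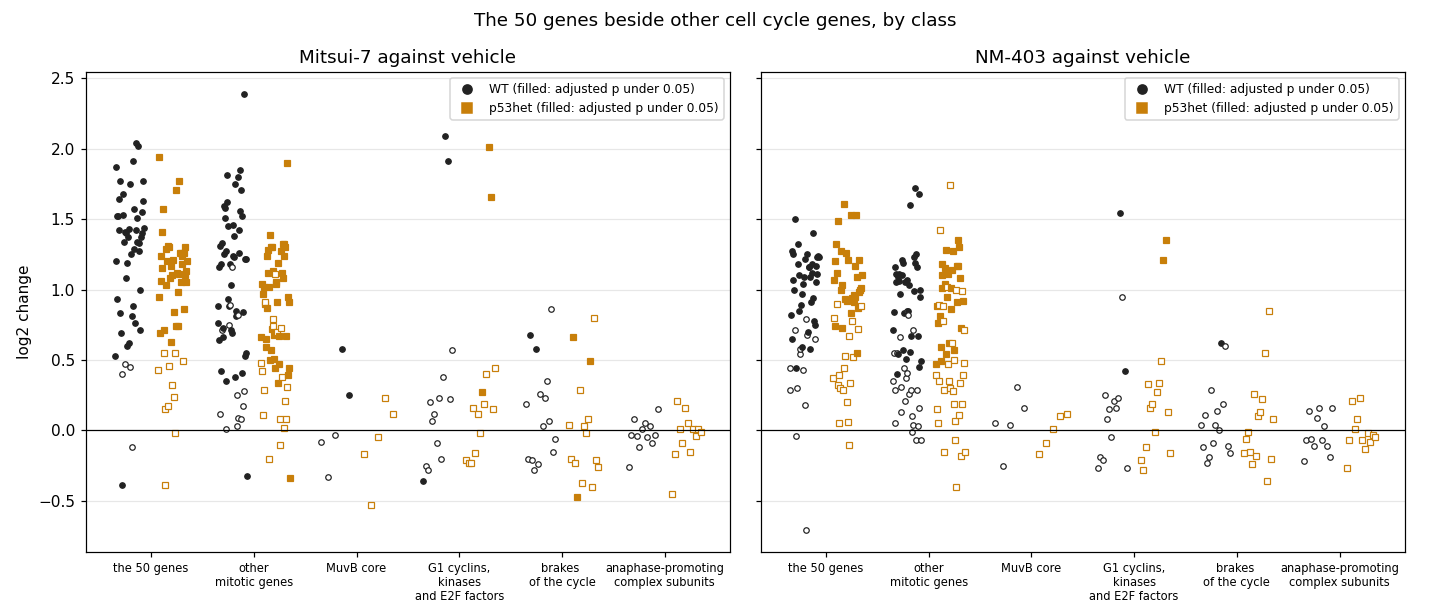
Log2 change of the 50 genes and of 107 other cell cycle genes by class (x axis), after Mitsui-7 (left) and NM-403 (right) against vehicle, in WT (black circles) and p53het rats (orange squares), with filled symbols where the adjusted p was under 0.05. The other mitotic genes spread upward like the 50. The 12 anaphase-promoting complex subunits stay near 0 and none is filled, which is near the shares of all genes called.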

How the data were processed

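RNA of 35 rat lungs was measured on one-colour Agilent arrays of 62976 spots, 1 array per rat, on 5 slides. The deposited scanner files, which the authors made with Agilent Feature Extraction 12.0.1.1 (source: the submitters' processing notes), hold an intensity per spot, background-corrected per the file headers. The authors' deposited log2 values, for 11555 probes, were an alternative. Of these probes 11545 were found among the scanner probes (r 0.995 to 0.999 per array). The column medians ran from -0.083 to 0.069, and how the authors scaled them is not stated in the sources used.

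Control spots and outlier spots were left out, log2 of the processed intensity minus the 75th percentile of the array was averaged per probe, and each gene was read from its brightest probe. Genes needed 5 arrays well above background. Group means were fitted over all 35 arrays with limma 3.58.1 (R 4.3.3, data.table, version 1.17.8). The median degrees of freedom of a test were 31.2, residual and prior together. Benjamini-Hochberg adjustment was over 24468 genes, with a threshold of 0.05. A bound for Cenpe sets the mean of the brighter group against the lowest signal well above background on each dimmer array. That mean includes rats not above background, so the bound is approximate. The scripts were tested on simulated data. Promoters came from RefSeq (GRCr8), matched by symbol. Motifs did not overlap in the printed stretches, but in the windows of Cdca8 and Mki67 a CHR and a CCAAT box shared a base.

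All 50 members may be named; levels in every group are given for the central members and for the largest and smallest change of each role, and other cycle genes by the 4 largest called changes per comparison with Cdkn1a, Cdkn1b, Ccnd1 and E2f1. The members, lists and tests were chosen with earlier results of these data known. Alternatives changed the scaling, background correction, filter, probe rule, slide or replicate block, array weights, samples fitted and rats included. Each group's number of arrays limits the precision. No 2 arrays held identical values. Same-numbered rats of different groups did not deviate together (mean r 0.0296 over 85 pairs, from -0.574 to 0.693), so numbers were not taken as pairs. Some checked genes are not reported here.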

Additional observations from a re-analysis of the deposited data

Results flagged for a closer look

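Of 174 groups of values examined, 10 held a rat set apart from the others of its group, and chance alone sets apart about 1 group in 20. The mean over the 50 genes was -3.1 in WT NM-403 rat 6, against -3.52 in the next rat, and Bub1b was 4.39% there against 2.84%. Ccnb1 was 5.55% in WT vehicle rat 4, against 4.26%, and Bub1b was 0.845% in WT vehicle rat 1, below the 1.21% of the next. In p53het Mitsui-7 rat 5 Cdca3 was 48.3% (next 37.8%), Top2a 24.1% (next 16.9%) and Ncapg2 28.5% (next 23.7%). Top2a was 23.8% in p53het NM-403 rat 3 (next 15%). At the low end Kif22 was 2.07% in p53het vehicle rat 4 (next 3.55%), and Mki67 was 33.1% in p53het NM-403 rat 1 (next 49.9%).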

How the results depend on the processing

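Counts of called genes stayed within 1.5 times the value reported under 225 alternatives and moved further under 21. These include the alternatives for the vehicle groups and both interactions, where 0 members were called and little could move. The authors' values hold 9 of the 50 genes, and 9, 8, 8 and 8 were called after Mitsui-7 and NM-403 in WT and then p53het rats, and 0 between the nanotubes in either genotype. In the p53het NM-403 comparison 15 were called with normexp and 16 when only the groups compared were fitted. Between the nanotubes in WT rats 5 were called with the mean of probes, 5 with slide as a random block and 6 with array weights; in p53het rats 0 with quantile or median scaling, and 1 with the mean of probes or only the groups compared. Leaving out 1 rat at a time gave 44 to 47, 33 to 40, 38 to 42 and 23 to 32 called genes against vehicle in that order, 2 to 5 between the nanotubes in WT and 1 to 3 in p53het rats, and 0 for genotype and both interactions. With the replicate block, which rests on a shared number only, 45, 36, 39 and 30 were called. Scan day as a block, chosen after seeing the data, gave 48, 43, 43 and 38. Of all genes 2612, 962, 1881 and 435 rose with it, and 2213, 746, 2707 and 229 fell.

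Some signs turned, and the cause was not tested. Without 1 rat at a time the Kif4a change after Mitsui-7 ran from -0.23 to 0.03 in WT and from -0.15 to 0.07 in p53het rats, and its Mitsui-7 interaction from -0.05 to 0.21. The Cdc25b change after NM-403 ran from -0.09 to 0.03 in WT and from -0.04 to 0.11 in p53het rats, and that of Kif23 from -0.09 to 0.17 in p53het rats. With quantile or median scaling the p53het Mitsui-7 change of Kif4a became 0.01. Cdc25b became 0.02 in WT NM-403 with normexp and -0.03 in p53het NM-403 with array weights. With normexp the p53het NM-403 changes of Cdc25c, Cenpe and Kif2c became -0.02 (the last from 0.67), that of Cenpa -0.08, and the NM-403 interaction of Cenpe -0.25; for Cenpe these are fitted values with vehicle signals not above background. Normexp and the replicate block cost Cdc25b its WT Mitsui-7 call (adjusted p = 0.143 and 0.0508, from 0.0159 to 0.143 over its alternatives with all rats). Signal near background limits the dim probes.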
